A study of Mus musculus with 12 samples.

Results

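Oxidative phosphorylation is carried out by 5 protein complexes in the inner mitochondrial membrane, and the genes studied here encode their nuclear subunits. They were chosen by symbol alone: every probe named Nduf, Sdha to Sdhd, Uqcr, Cox4 to Cox8 or Atp5 in the platform table. This gave 93 genes with 1 probe each, among 19572 named probes (those with 1 gene symbol) of 19505 genes. Complex I had 46 of them, complex II 4, complex III 8, complex IV 18 and complex V 17. The symbol rule also took in genes that are not subunits, namely 8 assembly factors of complex I (the Ndufaf genes) and Cox7a2l, which helps complexes join into supercomplexes. It left out Cyc1, the cytochrome c1 subunit of complex III. Ndufa4 and Ndufa4l2 were counted with complex I by their symbols, although the Ndufa4 protein is now placed in complex IV. The mitochondrially encoded subunits were not analysed here.

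Complexes I and II pass electrons from NADH and succinate to ubiquinone, complex III hands them to cytochrome c, and complex IV, cytochrome c oxidase, hands them to oxygen. Complexes I, III and IV pump protons out of the matrix as they do so, and complex V, the ATP synthase, lets them back through a rotor to make ATP. Sensory neurons draw heavily on this pathway, because long axons and ion pumping need a steady ATP supply.

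Trigeminal ganglion (TG) neurons, which carry sensation from the head, were taken from mice, grown on laminin-coated coverslips as primary cultures, and transfected with a miRNA. Each of miR-21, miR-34a and miR-324 has 3 arrays, as have the scramble miRNAs, the control in every comparison. Total RNA was hybridised to Clariom S Mouse arrays, and the values are log2 signals. Strain, age, dose and time after transfection were not given in the sources used here, nor do the labels tie each array to its own culture or animal. If the arrays share a culture, the p-values below rest on technical spread alone. Because all comparisons share the scramble arrays, a high or low scramble value moves all of them at once.

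The transfected miRNAs are shown because they define the groups. The labels name no arm of the hairpin, so the guide arms of miR-21 and miR-34a and both arms of miR-324 are given, as mature RNA from RefSeq on GRCm38.p6. Capitals mark the seed, bases 2 to 8.
mmu-miR-21a-5p, chr11:86584120-86584141 on the minus strand: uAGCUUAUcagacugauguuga
mmu-miR-34a-5p, chr4:150068473-150068494 on the plus strand: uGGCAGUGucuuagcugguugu
mmu-miR-324-5p, chr11:70012060-70012082 on the plus strand: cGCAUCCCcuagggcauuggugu
mmu-miR-324-3p, chr11:70012095-70012114 on the plus strand: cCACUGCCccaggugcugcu
The 4 seeds all differ from each other, and no 3′ untranslated regions were searched for them.

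The arrays differed in the cells they represent, within groups as well as between them. All 15 pan-neuronal marker genes were above the floor of the array in all 12 arrays, and 7 of 9 sensory neuron markers were. The floor was taken as the 95th percentile of 1414 olfactory and vomeronasal receptor probes, 4.87 to 5.80 by array. The titles of scramble 1 and 2 and miR-34a 1 and 2 end in the same suffix (A below). Those of scramble 3 and miR-324 2 end in a second one (B below) and also hold the word mimic. The remaining 6 titles have no suffix, and what the suffixes stand for is not given in the sources used here. The 9 macrophage markers had a median signal between 5.16 and 5.44 after miR-21, of 9.20, 8.79 and 4.37 in miR-34a 1, 2 and 3, 4.40 to 4.79 after miR-324, and 8.76, 8.64 and 4.55 in scramble 1, 2 and 3. All 9 were above the floor in miR-34a 1 and 2 and in scramble 1 and 2, and 1 to 6 of 9 in each other array. Scramble 3 and miR-34a 3 thus stood apart from the other arrays of their own groups. The 8 pituitary markers had a median of 5.83 to 6.22 in the miR-324 arrays and of 6.41 in scramble 3, and 3.86 to 4.66 in all other arrays, with 4 or 5 of 8 above the floor in these 4 arrays and 0 or 1 elsewhere. Results are therefore also given within a suffix that holds both groups, and without these arrays where they rest on them. No miR-21 array has a suffix and every scramble array has one. For miR-21 there is thus no within-suffix comparison, and miRNA and suffix cannot be told apart. A fit that blocks on suffix compares miR-21 with scramble only through the miR-34a and miR-324 arrays. In cultures of mixed cells, fewer cells of a type and less RNA per cell cannot be told apart.

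The 93 genes varied little against this background. The SD of a gene over the 12 arrays had a median of 0.33 on the log2 scale for them and 0.40 for all named probes, and 0.42 for the probes brighter than the median probe. A low spread was not particular to the pathway. In lists of neighbouring pathway genes the median SD ran from 0.29 for complex IV assembly to 0.59 for glycolysis. It was 0.33 for the mitochondrial ribosome and 0.36 for the citric acid cycle. None of the 93 had an SD above 1, against 5.63% of all named probes. Cox7b, a small subunit of complex IV, varied least, with an SD of 0.15 and all 12 arrays between 12.58 and 13.01. Ndufa1, an accessory subunit of complex I, followed with an SD of 0.15 and values of 8.35 to 8.92. Atp5d, the delta subunit of the F1 part of ATP synthase, varied most, with an SD of 0.63 and values of 13.55 to 15.19. Behind Atp5d came Cox7b2, Ndufb3, Ndufaf5, Ndufs7, Sdhc, Ndufa4l2, Ndufv2, Atp5c1 and Cox8a, with SDs of 0.57 down to 0.48. Of these, Cox7b2 and Ndufa4l2 were above the floor in 1 array each.

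**Figure D1:**
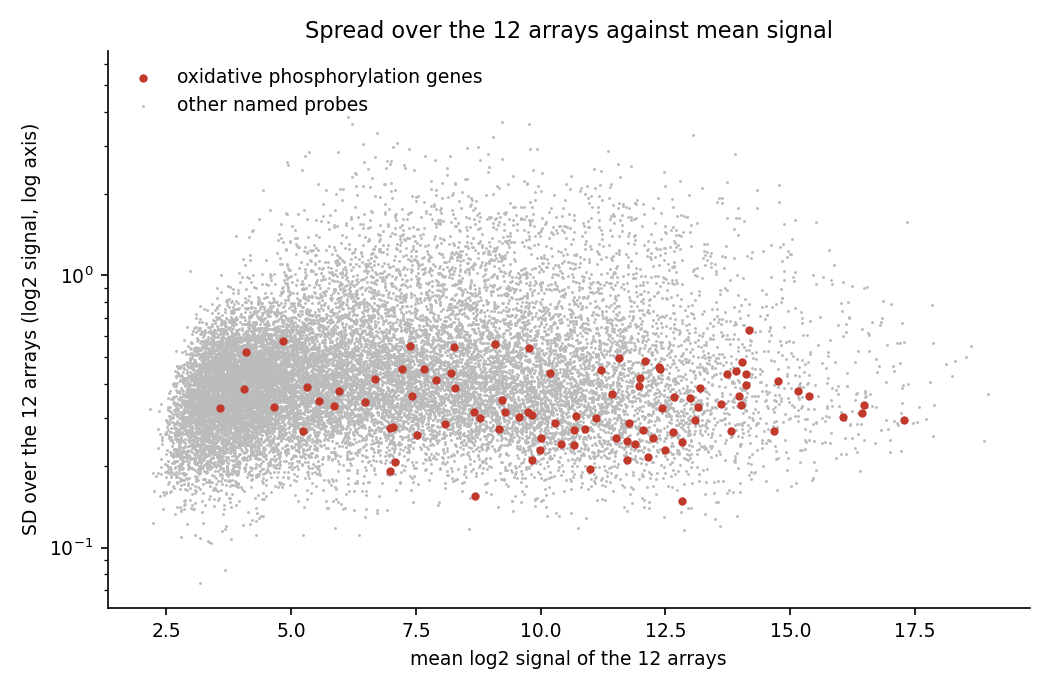
Each point is a named probe, with its mean log2 signal over the 12 arrays on the horizontal axis and its SD over the same arrays on a log vertical axis. Red points are the 93 oxidative phosphorylation genes and grey points all others. The red points lie between SDs of 0.15 and 0.63, while 5.63% of all named probes lie above an SD of 1.

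No gene of the pathway passed the test in any comparison with scramble (limma, adjusted p under 0.05 over all 19572 named probes). Among all named probes, 1.04% passed after miR-21, 0% after miR-34a and 0% after miR-324. At an unadjusted p under 0.05, the pathway had 9 genes after miR-21 (9.68%, against 16.6% of all named probes). Of these, 5 were higher (5.38%, against 10.6%) and 4 lower (4.3%, against 6.08%). There were 0 after miR-34a (0%, against 1.46%) and 11 after miR-324 (11.8%, against 14.7%). Of these 11, 1 was higher (1.08%, against 8.11%) and 10 lower (10.8%, against 6.59%). Among the 9786 probes brighter than the median probe, 763 were higher and 990 lower after miR-324 at this threshold. A test of any difference among the 4 groups called 0 of the 93 and 0.603% of all named probes, with a smallest adjusted p of 0.158 in the pathway, for Ndufb3 (limma, moderated F).

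The intervals of this fit give a range for each difference, but the fit takes no account of the suffix. A difference tied to the suffix is thus not covered by them. The 95% interval of a difference from scramble lay wholly within 2-fold for 64 of 93 genes after miR-21 (68.8%, against 51% of all named probes), 83 after miR-34a (89.2%, against 67.1%) and 60 after miR-324 (64.5%, against 52.9%). For the other genes a difference of 2-fold or more remains within the interval. Within suffix A the interval after miR-34a lay within 2-fold for 80 of 93 genes (86%, against 70%). No such count is given for miR-21, which shares no suffix with scramble, or for miR-324, where only miR-324 2 does. A mean difference of 2-fold or more was seen for Ndufb3 alone after miR-21 (1.08%, against 9.32% of all named probes) and for Atp5d alone after miR-324 (1.08%, against 8.7%). None reached it after miR-34a (0%, against 1.18%).

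After miR-21 the genes split evenly about scramble. The mean was higher for 48 (51.6%, against 61.5% of all named probes) and lower for 45 (48.4%, against 38.3%), and the median difference was 0.02 on the log2 scale, against 0.13 for all named probes. The medians were 0.09 for complex I, −0.03 for II, −0.07 for III, −0.12 for IV and −0.17 for V. This order rests on the scramble arrays: with the suffix as a fixed block complex V had 0.12 and complex I 0.07, and with scramble 1 and 2 left out they had 0.12 and 0.18. All 3 miR-21 arrays lay above all 3 scramble arrays for 9 genes (9.68%, against 16.9%), and below them for 5 (5.38%, against 8.75%), which makes 14 without overlap (15.1%, against 25.6%).

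After miR-34a the differences were the smallest of the 3 comparisons, from −0.42 to 0.39. This was not particular to the pathway. The median absolute difference of all named probes was 0.19 after miR-34a and 0.32 after both miR-21 and miR-324. The mean was higher for 37 genes and lower for 56 (60.2% lower, against 43.9% of all named probes), and the median was −0.07, against 0.04. The complex medians were −0.07 for I, 0.21 for II, −0.07 for III, −0.11 for IV and −0.03 for V. Only Ndufa11 and Atp5l had all 3 miR-34a arrays below all scramble arrays (2.15%, against 2.31%), and none had them above (0%, against 3.49%). Within suffix A, which holds 2 arrays of each group, 69 genes were lower in the mean (74.2%, against 50.9%), the median was −0.11 (−0.005 for all named probes), and none passed (0% of all named probes passed, limma). At an unadjusted p under 0.05 there were 0 members, against 1.24% of all named probes.

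After miR-324 most of the genes were lower in the mean, 70 of 93 (75.3%, against 41.5% of all named probes), with 22 higher. The median difference was −0.28, against 0.09 for all named probes and −0.02 for those brighter than the median probe. The 5 complexes each had a median below 0: −0.26 for I, −0.35 for II, −0.23 for III, −0.18 for IV and −0.44 for V. Of the probes brighter than the median probe, 51.3% were lower in the mean. All 3 miR-324 arrays lay below all 3 scramble arrays for 12 genes (12.9%, against 7.3%), and above them for 6 (6.45%, against 12.6%). This makes 18 without overlap (19.4%, against 19.9%). Among the 9786 probes brighter than the median probe, 1077 lay below without overlap and 1153 above. Both the miR-324 2 and the scramble 3 array have suffix B, and between this pair, where each group has 1 array, the median was 0.01, with 45 genes lower (48.4%, against 46.3%) and 0 called (0% of all named probes, limma). At an unadjusted p under 0.05 there were 2 members, Cox6a2 and Ndufaf6, both lower (2.15%, against 4.81%), and only Cox6a2 differed by 2-fold or more (1.08%, against 5.11%). With scramble 1 and 2 left out, the median difference of the miR-324 arrays from scramble 3 was −0.04.

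**Figure D2:**
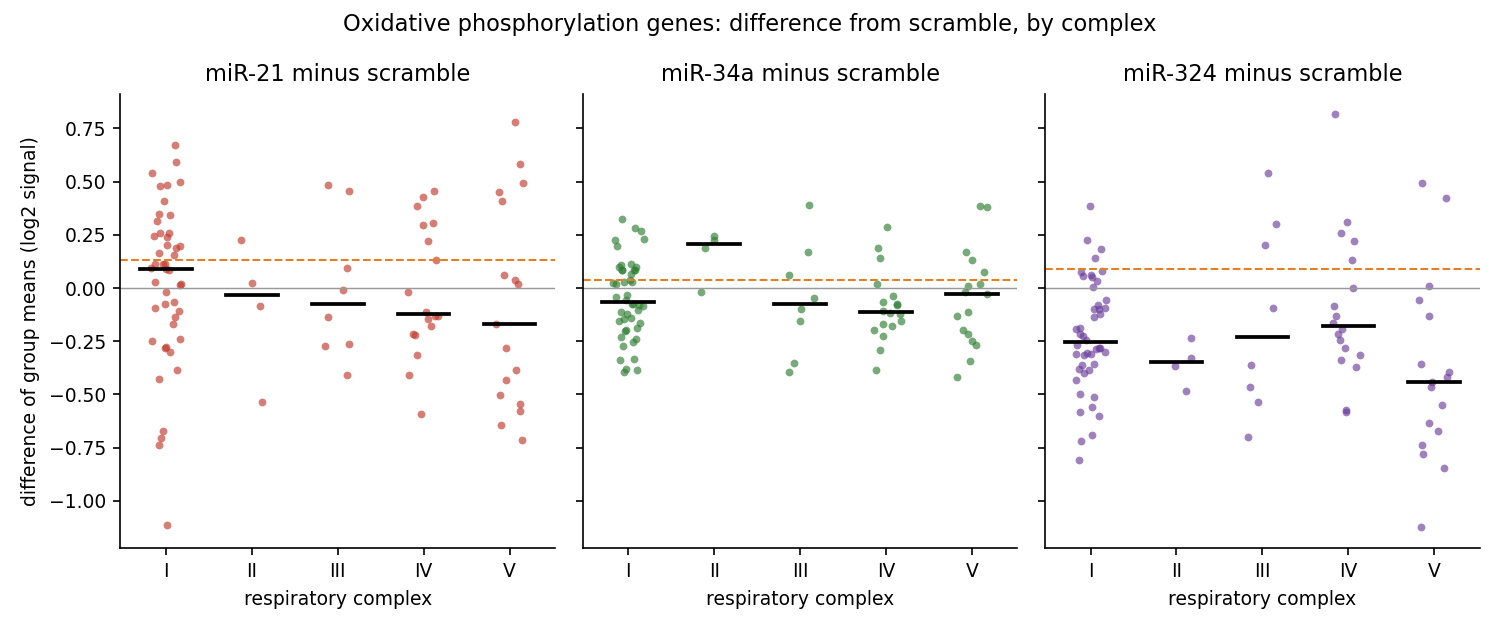
Each point is 1 gene, placed by complex, with its difference from scramble in group means (log2 signal) on the vertical axis, in a panel for each miRNA. Black bars are the medians of the complexes and the orange dashed line the median of all named probes. In the miR-324 panel all 5 bars lie below 0, from −0.18 to −0.44, and the miR-34a points lie between −0.42 and 0.39.

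Complex I takes electrons from NADH. Its 6 measured core subunits carry the electron path, and its 30 accessory subunits surround them. The core subunits had a median difference of −0.08 after miR-21, −0.03 after miR-34a and −0.51 after miR-324, with 5 of 6 lower in the mean after miR-324. Between miR-324 2 and scramble 3, which share suffix B, the core median was −0.07, with 3 of 6 lower. The accessory subunits had medians of 0.09, −0.07 and −0.23 after miR-21, miR-34a and miR-324, and the assembly factors 0.11, 0.09 and −0.21.

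Ndufb3, an accessory subunit of the membrane arm, came nearest to the threshold of all 93. It had 8.36, 7.88 and 8.96 in miR-21 arrays 1, 2 and 3, against 9.59, 9.77 and 9.18 in scramble 1, 2 and 3. All 3 miR-21 arrays were below all scramble arrays, and the difference was −1.11 ± 0.29 (SE, n = 3 each, limma adjusted p = 0.0824). The miR-34a arrays stood at 9.59, 9.37 and 9.48, within the scramble range, and the miR-324 arrays at 9.29, 8.75 and 8.83, overlapping it. The adjusted p after miR-21 was 0.0499 without miR-34a 3 and 0.0413 after another quantile normalization, so that the gene sits at the threshold and its call depends on the fit.

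Other accessory subunits differed in both directions after miR-21. Ndufa8 had 12.70, 12.60 and 13.04 in the miR-21 arrays, against 13.55, 13.84 and 13.07 in scramble, a difference of −0.71 ± 0.23. Ndufb9 had 14.42, 14.62 and 14.81, against 13.91, 14.39 and 13.54, a difference of 0.67 ± 0.26. These are 2 subunits of the same complex with non-overlapping groups and opposite signs, and neither passed (limma adjusted p = 0.154 and 0.222). Ndufb8 and Ndufab1, the mitochondrial acyl carrier protein, also had all miR-21 arrays above scramble.

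Ndufv2 and Ndufv1, which form the NADH-oxidising tip of the complex, were lower in the mean after miR-324. Ndufv2 had 11.48, 10.73 and 10.55 in miR-324 1, 2 and 4, against 11.79, 11.96 and 11.17 in scramble, a difference of −0.72 ± 0.28 (limma adjusted p = 0.318). Scramble 3 was the lowest scramble array and lay below miR-324 1. Ndufv1 had 12.08, 12.23 and 12.10, against 12.61, 13.03 and 12.51, with no overlap (−0.58 ± 0.24). Between miR-324 2 and scramble 3, which share a suffix, the difference was −0.44 for Ndufv2 and −0.28 for Ndufv1. The miR-21 and miR-34a arrays of Ndufv2 lay between 11.74 and 12.00 and overlapped scramble.

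Ndufs7, an iron-sulfur core subunit, shows how far scramble itself varied. It had 7.67, 7.91 and 7.97 in the miR-324 arrays, against 9.03, 9.15 and 7.79 in scramble, a mean difference of −0.81 ± 0.40. Scramble 3 lay among the miR-324 values, while scramble 1 and 2 were more than 1 log2 unit above it. Ndufs1, the largest core subunit, was steadier, at 9.65 to 10.07 in miR-324 arrays and 9.86 to 10.36 in scramble (−0.22 ± 0.22).

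Among the assembly factors, Ndufaf5 varied most, with 7.51, 6.32 and 6.87 in the miR-21 arrays, 7.33, 7.82 and 7.07 in miR-34a, 7.53, 8.23 and 6.91 in miR-324, and 7.46, 7.25 and 8.20 in scramble. The difference was −0.74 ± 0.40 after miR-21 (limma adjusted p = 0.372), and the groups overlapped in each comparison. Ndufa4 had 13.22, 13.09 and 13.89 in the miR-21 arrays, 14.19, 14.09 and 13.72 in miR-34a, 13.18, 13.74 and 13.49 in miR-324, and 14.13, 14.45 and 13.64 in scramble. The difference of Ndufa4 was −0.67 ± 0.29 after miR-21 and −0.60 ± 0.29 after miR-324 (limma adjusted p = 0.269 and 0.347). Its paralogue Ndufa4l2, known as a hypoxia-induced gene, was above the floor in 1 array only, so that no comparison of its level was possible. Ndufb4 and Ndufb4b are near-identical copies whose probes may not tell them apart, and both stayed within 0.31 log2 units of scramble in the mean.

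Complex II, succinate dehydrogenase, is also an enzyme of the citric acid cycle and is encoded wholly in the nucleus. Over all arrays, the 4 subunits were lower in the mean after miR-324, by 0.24 to 0.48, and 3 of 4 were higher after miR-34a. Both directions changed within a suffix. Within suffix A all 4 were lower after miR-34a (median −0.07). Between miR-324 2 and scramble 3, which share suffix B, 3 of 4 were higher (median 0.055). Sdhd, a membrane anchor, had 10.31, 9.22 and 10.05 in the miR-21 arrays, 10.50, 10.59 and 10.66 in miR-34a, 9.86, 9.98 and 9.89 in miR-324, and 10.64, 10.59 and 9.95 in scramble. Its difference was −0.53 ± 0.29 after miR-21 and −0.48 ± 0.29 after miR-324, and groups overlapped because scramble 3 was lower by about 0.6 than scramble 1 and 2 (limma adjusted p = 0.37 and 0.425).

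Sdhc, the other membrane anchor, had the widest scramble range of the complex, at 9.93, 10.43 and 8.80 in scramble 1, 2 and 3. The miR-324 arrays had 9.90, 9.02 and 9.26, which lie between these values, and the difference was −0.33 ± 0.41. In the miR-34a group the arrays with suffix A had 9.81 and 9.53, and miR-34a 3 had 10.55. The flavoprotein Sdha, which oxidises succinate, had 8.47, 8.37 and 8.48 in miR-324 arrays, against 9.03, 9.10 and 8.29 in scramble (−0.37 ± 0.23). The iron-sulfur subunit Sdhb differed least in this comparison, by −0.24 ± 0.25.

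In complex III, all 3 core subunits that the symbol rule took in were lower in the mean after miR-324 (median −0.53). Cyc1 is not among them. Of the 5 small subunits 3 were higher and 2 lower (median 0.20), with Uqcrh at −0.46, and the difference between core and small subunits was not tested. Uqcrc1, a large core protein of the matrix side, had 11.00, 11.30 and 11.00 in the miR-324 arrays, against 11.75, 12.21 and 11.44 in scramble, with no overlap. Its difference was −0.70 ± 0.26 (limma adjusted p = 0.316). Uqcrfs1, the Rieske iron-sulfur protein, had 8.93, 8.88 and 8.78, against 9.57, 9.48 and 9.14, also without overlap (−0.53 ± 0.22). Between miR-324 2 and scramble 3 these differences were −0.14 and −0.26, as against −0.70 and −0.53 over all arrays.

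Uqcr10, a small subunit, was the only member with an unadjusted p under 0.05 in the other direction after miR-324. It had 9.66, 9.49 and 9.88 in the miR-324 arrays, against 9.08, 9.16 and 9.17 in scramble, with no overlap (0.54 ± 0.23, limma adjusted p = 0.326). Uqcrq, another small subunit, had 10.40, 10.43 and 10.09 in the miR-21 arrays, against 9.82, 9.88 and 9.85 in scramble (0.46 ± 0.21), and its miR-324 arrays lay above scramble too, at 10.02, 10.20 and 9.93. Uqcrb, also a small subunit, had the smallest p of the complex after miR-34a (0.39 ± 0.26, limma adjusted p = 0.999), with 16.58, 16.10 and 16.90 against 16.13, 16.24 and 16.04 in scramble, and these groups overlapped.

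Complex IV has 10 widely used subunits among the 18 genes, and 7 alternative isoforms known from muscle, lung or testis. The widely used subunits had median differences of −0.14 after miR-21, −0.12 after miR-34a and −0.23 after miR-324. After each of miR-34a and miR-324, 9 of 10 were lower in the mean, against 43.9% and 41.5% of all named probes. The miR-34a arrays differed: 9, 3 and 0 of the 10 lay above their scramble mean in miR-34a 1, 2 and 3. Within suffix A the miR-34a median was −0.075, with 7 of 10 lower. Between miR-324 2 and scramble 3 the median was −0.005, with 5 of 10 lower. Cox6c had 13.38, 13.70 and 13.77 in the miR-324 arrays, against 14.16, 14.61 and 13.80 in scramble, just without overlap (−0.57 ± 0.27, limma adjusted p = 0.348). Cox8a had 13.50, 13.91 and 13.92, against 14.17, 15.01 and 13.90, a difference of −0.58 ± 0.35 with scramble 3 among the miR-324 values. Cox6b1 had 13.28, 13.21 and 13.76 in the miR-21 arrays, against 12.94, 13.18 and 12.76 in scramble (0.46 ± 0.23, limma adjusted p = 0.349).

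Of the alternative isoforms, Cox6b2 and Cox8b were above the floor in no array, Cox7a1 and Cox7b2 in 1, Cox4i2 in 6 and Cox8c in 10. Each has a widely used counterpart, Cox6b1, Cox8a, Cox7a2, Cox7b and Cox4i1, that was above the floor in all 12 arrays. The largest mean difference of complex IV after miR-324, 0.82 ± 0.41 for Cox7b2, is one between signals near the floor. Cox6a2, the form of heart and skeletal muscle, was the only alternative isoform above the floor throughout. It had 6.33, 6.91 and 6.67 in the miR-21 arrays, 6.15, 6.45 and 6.68 in miR-34a, 6.96, 6.58 and 6.90 in miR-324, and 6.43, 6.30 and 7.71 in scramble. Scramble 3 was the highest of all 12 arrays, and 8 of 12 muscle marker genes were above the floor in no array. The counterpart Cox6a1 had 14.89, 15.02 and 15.55, then 15.54, 15.64 and 14.60, then 14.77, 15.12 and 14.89 in the same miRNA groups, and 15.47, 15.60 and 14.82 in scramble, where scramble 3 was the lowest.

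Complex V, the ATP synthase, had a median difference of −0.44 after miR-324, the lowest of the 5 complexes over all arrays, with 14 of 17 genes lower in the mean. A fit that blocked on suffix gave complex V −0.10 and complex I −0.18. The pair of miR-324 2 and scramble 3 gave complex V 0.05, with 8 of 17 lower, and with scramble 1 and 2 left out it was −0.13. Complex V consists of F1, a peripheral stalk, a ring of c subunits that rotates, and small membrane subunits. F1 comprises the head, where ATP is made, and the shaft, and the peripheral stalk holds the head still. The F1 head genes below are all 5 of F1, shaft included: Atp5a1, Atp5b, Atp5c1, Atp5d and Atp5e. The peripheral stalk genes had a median difference of −0.47 after miR-21, −0.14 after miR-34a and −0.70 after miR-324. The c-ring genes had medians of 0.02, −0.13 and −0.55, the F1 head genes 0.04, 0.01 and −0.13, and the membrane subunits 0.06, −0.02 and −0.36. In the suffix B pair the medians were −0.30 for the stalk, 0.06 for the c-ring with all 3 genes higher, 0.08 for the head and −0.01 for the membrane subunits.

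All 4 stalk genes were lower in the mean after miR-324 and after miR-21. Atp5h, stalk subunit d, had 15.09, 15.22 and 15.37 in the miR-21 arrays, 15.78, 15.46 and 15.33 in miR-34a, 15.16, 15.13 and 14.68 in miR-324, and 15.71, 16.01 and 15.59 in scramble. Its miR-21 and miR-324 arrays all lay below scramble, by −0.54 ± 0.23 and −0.78 ± 0.23 (limma adjusted p = 0.254 and 0.309). Atp5pb, stalk subunit b, had 12.09, 11.85 and 11.79 in the miR-324 arrays, against 12.78, 13.01 and 12.15 in scramble (−0.74 ± 0.27, limma adjusted p = 0.313). Atp5j, coupling factor 6, had 12.30, 12.18 and 12.09, against 12.72, 12.78 and 12.47 (−0.47 ± 0.20). Atp5o, which joins stalk and head, had 10.58, 11.20 and 11.05, against 11.86, 11.96 and 11.02, and overlapped scramble through scramble 3 (−0.67 ± 0.33). Between miR-324 2 and scramble 3 the 4 genes differed by −0.46, −0.30, −0.29 and 0.18, in the same order.

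The F1 head genes differed from scramble in different degrees. Atp5d had 13.61 to 14.34 in the miR-21 arrays, 14.99, 14.70 and 13.60 in miR-34a, 13.55, 13.59 and 13.58 in miR-324, and 14.91, 15.19 and 13.99 in scramble. The miR-324 arrays were the tightest group of the gene and lay below all scramble arrays (−1.12 ± 0.38, limma adjusted p = 0.309). Atp5d was also the only gene of the pathway called between arrays of 1 group: miR-34a 3 differed from miR-34a 1 and 2 by −1.25 ± 0.36 (limma adjusted p = 0.0459). In that contrast 1.08% of the pathway and 10.8% of all named probes were called, and Atp5d was not called with the arrays centred on their medians. Between miR-324 2 and scramble 3 Atp5d differed by −0.40 ± 0.42.

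Atp5c1, the gamma shaft, had 11.59, 11.45 and 11.82 in the miR-324 arrays, against 13.04, 12.58 and 11.77 in scramble, where scramble 3 lay within the miR-324 range. The difference was −0.84 ± 0.30 (limma adjusted p = 0.313), and −1.19 (limma adjusted p = 0.0481) without scramble 3. That fit leaves only scramble arrays with suffix A, which no miR-324 array has. In the suffix B pair, miR-324 2 had 11.45 and scramble 3 had 11.77. Atp5b, the catalytic beta subunit, and Atp5a1, the alpha subunit, differed less. Atp5b had 16.55, 15.94 and 16.14 in the miR-324 arrays, against 16.30, 16.64 and 15.86 in scramble (−0.06 ± 0.25). Atp5a1 had 16.05, 15.78 and 15.74, against 16.06, 16.37 and 15.53 (−0.13 ± 0.25). The intervals of both, −0.59 to 0.48 and −0.67 to 0.41, lie within 2-fold.

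Atp5e, the epsilon subunit, was the only F1 gene with a higher mean after miR-324. It had 7.90, 7.45 and 7.69 in the miR-21 arrays, 6.66, 6.50 and 7.57 in miR-34a, 7.62, 7.23 and 7.33 in miR-324, and 6.66, 7.11 and 6.93 in scramble. The miR-21 and miR-324 arrays all lay above scramble, by 0.78 ± 0.29 and 0.49 ± 0.29 (limma adjusted p = 0.2 and 0.415). Here miR-34a 3 stood with those arrays and above miR-34a 1 and 2. Of the membrane subunits, Atp5j2 had 14.40, 14.34 and 14.60 in the miR-21 arrays, against 14.08, 13.99 and 13.52 in scramble (0.58 ± 0.23). Atp5l was the member with the smallest p of complex V after miR-34a, with 10.66, 10.39 and 10.72, against 10.78, 11.16 and 10.86 in scramble (−0.34 ± 0.21, limma adjusted p = 0.999).

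**Figure D3:**
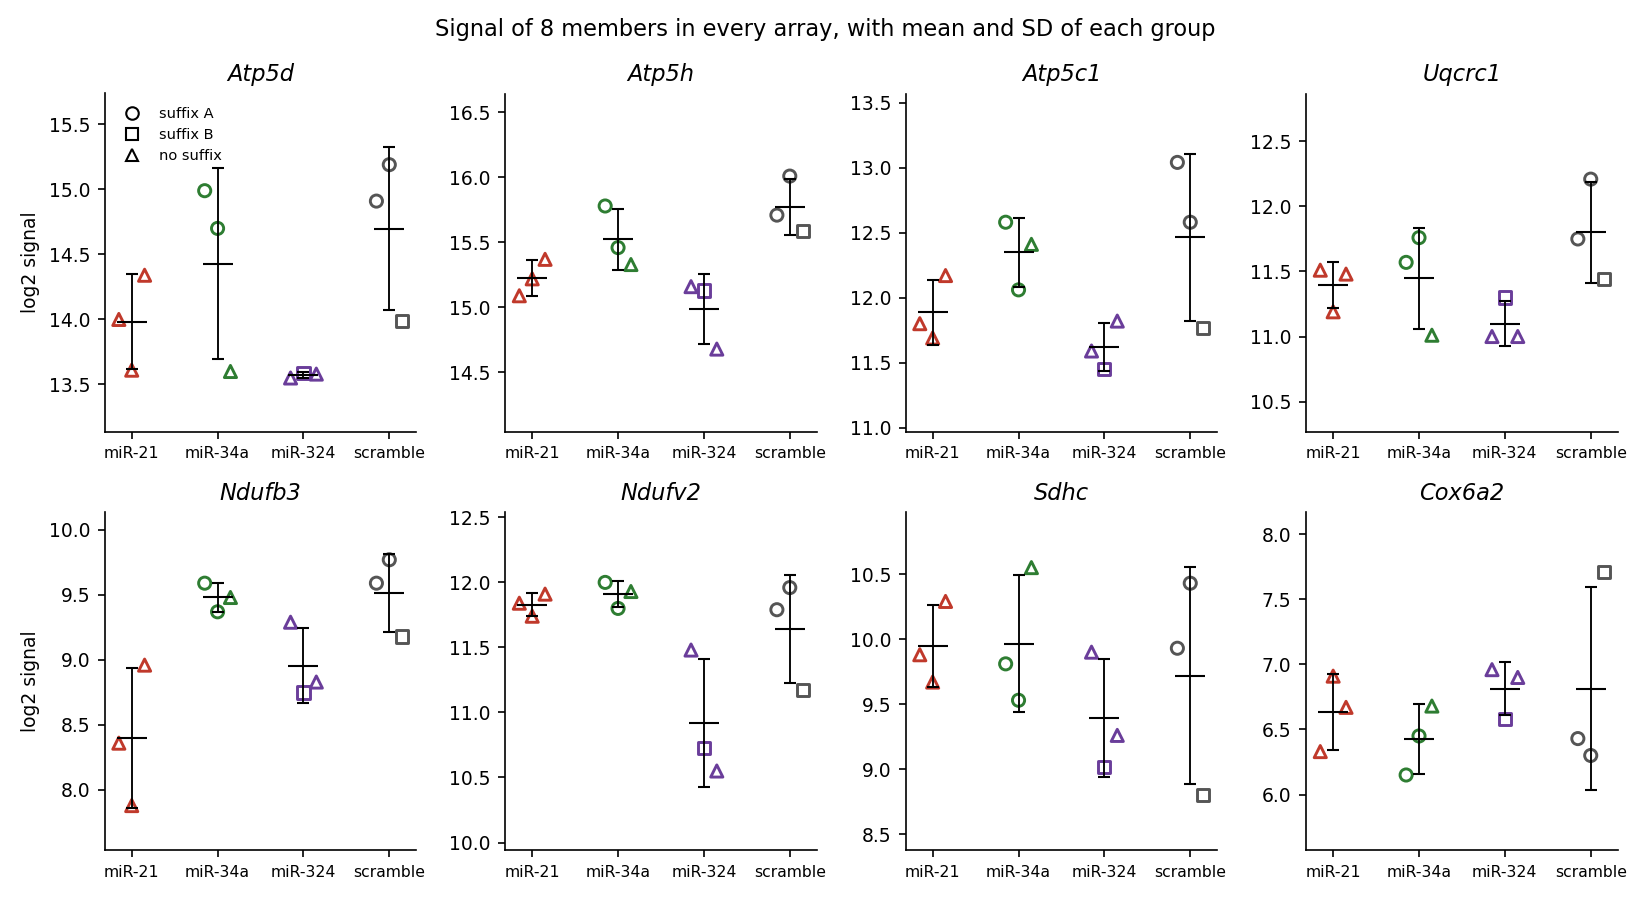
Signal (log2) of 8 genes in each array, with 1 panel per gene, the miRNA groups left of scramble, and bars for the mean ± SD of 3 arrays. Marker shapes give the label suffix. Atp5d lies at 13.55 to 13.59 in the miR-324 arrays, and in Atp5d, Atp5c1, Ndufv2 and Sdhc scramble 3 lies below scramble 1 and 2. It lies within the range of the miR-324 arrays in Atp5c1 and Ndufv2, above that range in Atp5d and below it in Sdhc.

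Set against the scramble mean gene by gene, the median of the 93 genes in each array shows which arrays carry the shift. It was 0.02, −0.12 and 0.10 in miR-21 1, 2 and 3, and 0.08, −0.10 and −0.12 in miR-34a 1, 2 and 3. It was −0.16, −0.23 and −0.32 in miR-324 1, 2 and 4, and 0.00, 0.26 and −0.20 in scramble 1, 2 and 3. All miR-324 arrays were below 0, and scramble 3 lay among them. Scramble 2 was the highest scramble array for 72% of the pathway, against 42.2% of all named probes, and scramble 3 the lowest for 64.5%, against 39.8%.

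The range among the scramble arrays was as wide as the shift between groups. For complex V the medians were −0.52, −0.41 and −0.46 in the miR-324 arrays, against 0.06, 0.24 and −0.39 in scramble 1, 2 and 3. For complex II they were −0.29, −0.42 and −0.39, against 0.22, 0.31 and −0.48. For complex IV they were −0.18, −0.19 and −0.12, against −0.09, 0.12 and −0.08, and for complex III −0.10, −0.18 and −0.12, against −0.02, 0.09 and −0.13. For complex I they were −0.11, −0.20 and −0.34, against 0.02, 0.28 and −0.23. In complexes I, II and III the median of scramble 3 lay among or below those of the miR-324 arrays, and in IV and V it was above all of them. Endothelial markers, measured in the same way, had 3.29, 2.03 and 2.23 in the miR-324 arrays, against −0.83, −0.63 and 1.54 in scramble 1, 2 and 3. The endothelial value of miR-34a 3 was 2.33, and macrophage values were also low in miR-34a 3 (−2.47) and in the miR-21 arrays (−1.92 to −1.66), so that of these 3 lists only the pituitary one was high in scramble 3 and the miR-324 arrays alone. The part of these cell types in the shift of the pathway was not tested.

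**Figure D4:**
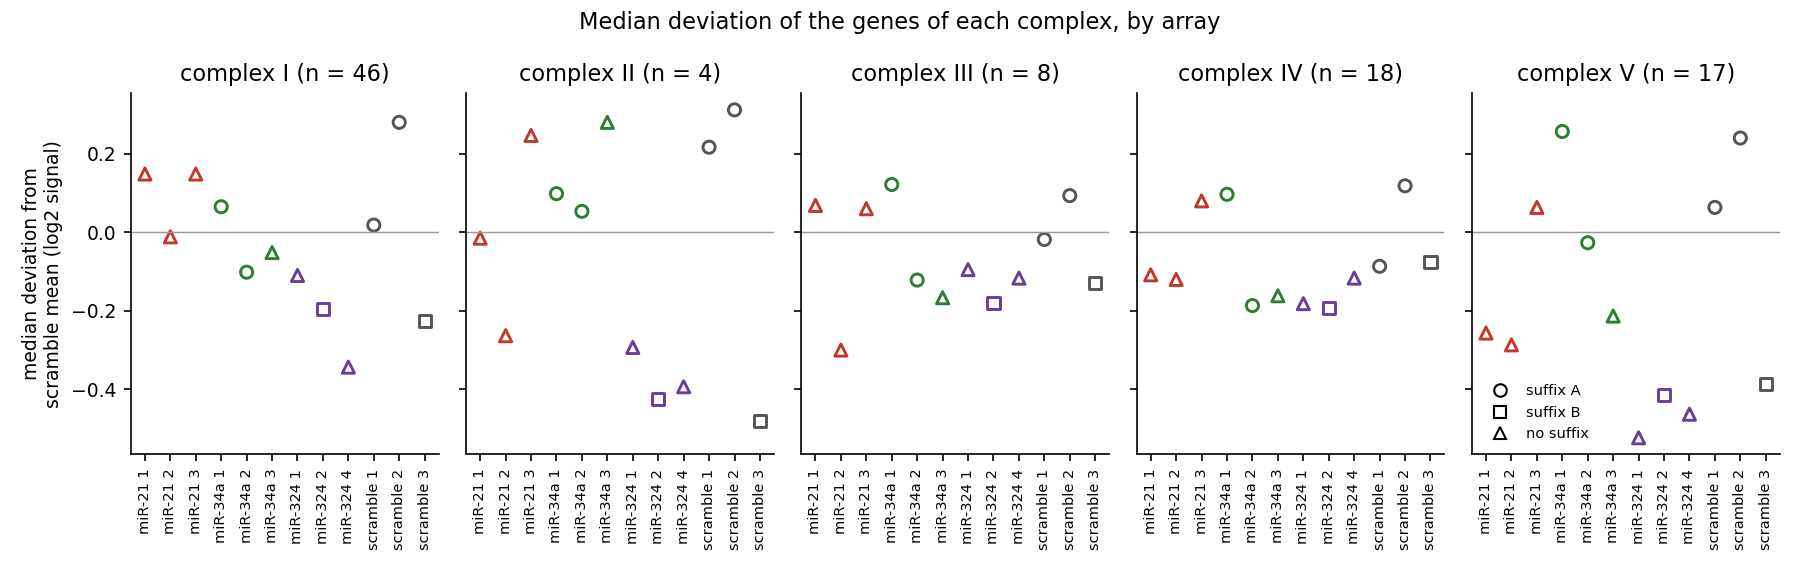
For each complex, the median deviation of its genes from the scramble mean (log2 signal) is plotted for each of the 12 arrays, with marker shapes for the label suffix. The miR-324 arrays lie below 0 in all 5 panels. Scramble 3 is at −0.48 in complex II and −0.39 in complex V, while scramble 2 is the highest scramble array in all 5.

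In 11 lists of neighbouring pathway genes, of 3 to 38 measured genes each, 1 gene in all passed the test in a comparison with scramble. Among all named probes, 1.04% passed after miR-21, so that a single call in these lists is no excess. The gene was Uqcc2, an assembly factor of complex III and 1 of 6 such genes measured. Uqcc2 had 11.22, 11.01 and 11.08 in the miR-21 arrays, 10.33, 10.19 and 10.14 in miR-34a, 10.73, 10.83 and 10.68 in miR-324, and 9.99, 9.93 and 10.27 in scramble. The miR-21 and miR-324 arrays all lay above scramble. The difference of Uqcc2 was 1.04 ± 0.19 after miR-21 (limma adjusted p = 0.028) and 0.68 ± 0.19 after miR-324 (limma adjusted p = 0.309). No miR-21 array shares a suffix with a scramble array. The difference after miR-21 was 0.97 to 1.14 when any array was left out, but passed no longer without any of miR-21 1, 2 or 3 or scramble 1 or 2 (limma adjusted p = 0.0739 to 0.125). With the suffix as a block it was 1.13 (limma adjusted p = 0.058), and it was 0.83 (limma adjusted p = 0.225) with scramble 1 and 2 both left out. The other 5 complex III assembly factors did not pass.

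The lists for metabolism differed in their medians after miR-324, and none of their genes passed. Among all named probes, 41.5% were lower in the mean in this comparison, and 51.3% of those brighter than the median probe. The median difference was −0.53 for 15 genes of the citric acid cycle, with 13 lower in the mean, and −0.67 for 18 glycolysis genes, with 17 lower. It was −0.02 for 38 genes of the mitochondrial ribosome, with 19 lower, and 0.12 for 11 regulators of mitochondrial biogenesis. Lists of assembly and related genes outside the symbol rule had medians of −0.02 for complex I, −0.09 for II, −0.18 for III, −0.12 for IV and 0.13 for V. The list of Cycs, Cyct and Cyc1 had 0.00. After miR-21 the medians were −0.07 for the citric acid cycle, −0.12 for glycolysis, 0.16 for the mitochondrial ribosome and 0.42 for 13 hypoxia targets. After miR-34a they were 0.03, −0.09, 0.13 and −0.01 in the same order. The citric acid cycle list stood at −0.40, −0.49 and −0.56 in the miR-324 arrays, while scramble 1, 2 and 3 stood at 0.15, 0.25 and −0.35. The glycolysis list stood at −0.77, −0.60 and −0.545 in miR-324 1, 2 and 4, and at 0.16, 0.31 and −0.53 in scramble 1, 2 and 3. In miR-34a 3 it was −0.83.

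Most cell type markers varied over wider ranges than the pathway. The median SD over the 12 arrays was 0.63 to 1.69 in 9 of the 11 marker lists, and 0.38 for muscle and 0.35 for erythroid markers, which lay mostly below the floor, against 0.33 for the pathway. Pan-neuronal genes had a median deviation of −0.87 to −1.41 in the miR-21 arrays, 0.23, 0.10 and −3.38 in miR-34a 1, 2 and 3, −3.22, −0.86 and −0.93 in miR-324 1, 2 and 4, and 0.26, 0.34 and −0.55 in scramble. In miR-34a 3, where pan-neuronal and sensory neuron markers were lowest, the 93 genes had a median of −0.12, against 0.08 and −0.10 in miR-34a 1 and 2. By the same measure, endothelial markers were highest in miR-324 1, at 3.29, and myelinating Schwann cell markers in miR-34a 3, at 2.13. The pathway's medians in these arrays were −0.16 and −0.12.

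**Figure D5:**
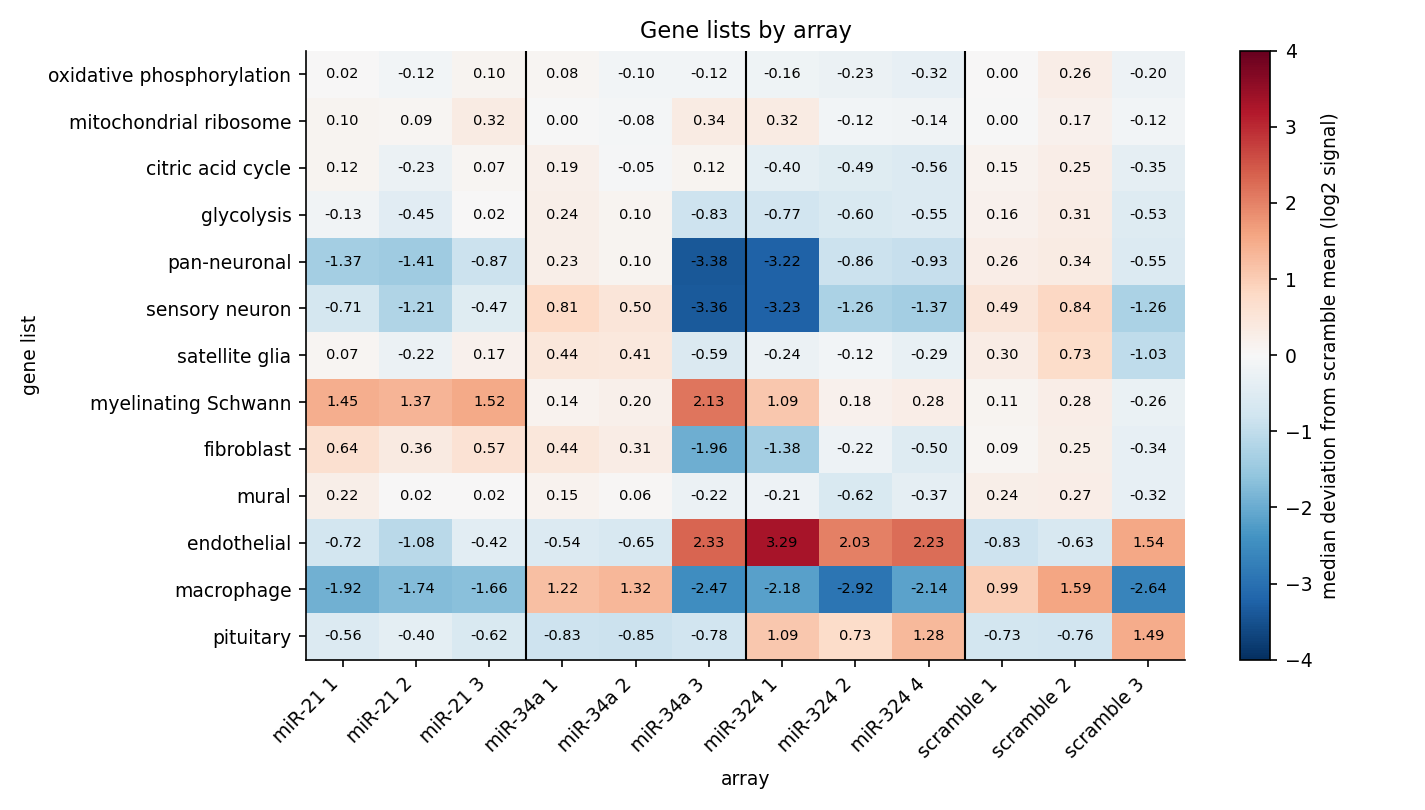
Median deviation from the scramble mean (log2 signal, colour and printed value) of 13 gene lists in the 12 arrays, with the miRNA groups left of scramble. The oxidative phosphorylation row spans −0.32 to 0.26, while the pan-neuronal row spans −3.38 to 0.34 and the macrophage row −2.92 to 1.59.

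The promoters are shown because many members share short motifs that the symbol rule did not use. Nuclear respiratory factor 1 (NRF1) and ETS-family factors such as GABP are known activators of respiratory chain genes, and YY1 is another. RefSeq windows around the start of the gene, on GRCm38.p6, were found for 77 of the 93 genes and for 27025 genes in all. They were searched on both strands for GCGCA and GCGC with any 1 base between them (NRF1), CCGGAAG (ETS) and AAGATGGC (YY1). The NRF1 letters were in 19 members (24.7%, against 5.19% of all genes), the ETS letters in 19 (24.7%, against 9.93%) and the YY1 letters in 11 (14.3%, against 3.19%). At least 1 of them was in 42 (54.5%, against 16.4%). A match is a description of the letters and not a site of binding.

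The 150 bases before the start of 3 genes that hold both NRF1 and ETS letters are given, with these in capitals, read along the gene's strand.
Atp5h, chr11:115419920-115420069 on the minus strand: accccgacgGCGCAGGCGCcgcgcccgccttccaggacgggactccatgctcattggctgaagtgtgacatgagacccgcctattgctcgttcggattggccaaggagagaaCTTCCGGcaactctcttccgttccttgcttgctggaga
Sdhd, chr9:50603850-50603999 on the minus strand: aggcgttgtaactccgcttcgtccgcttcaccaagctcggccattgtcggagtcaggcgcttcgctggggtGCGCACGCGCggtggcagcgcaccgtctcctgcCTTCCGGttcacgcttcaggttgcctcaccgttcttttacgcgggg
Cox6a1, chr5:115348959-115349108 on the minus strand: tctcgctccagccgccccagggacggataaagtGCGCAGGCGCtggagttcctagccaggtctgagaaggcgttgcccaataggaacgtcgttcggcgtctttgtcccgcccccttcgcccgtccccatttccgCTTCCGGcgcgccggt
In all 3 the ETS letters are on the opposite strand and lie nearer the start than the NRF1 letters.

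By complex, the NRF1 letters were in 9 of 41 windows of complex I, 2 of 3 of II, 1 of 5 of III, 1 of 13 of IV and 6 of 15 of V (Atp5c1, Atp5g2, Atp5g3, Atp5h, Atp5k and Atp5o). The ETS letters were in 6 of 41, 2 of 3, 2 of 5, 3 of 13 and 6 of 15 in the same order. The YY1 letters were in 8 of 41 windows of complex I and 3 of 15 of complex V, and in none of complexes II, III and IV. After miR-324 the members with NRF1 letters had a median difference of −0.37 (19 genes), and those without −0.26 (58 genes). For the ETS letters the medians were −0.31 and −0.26, and for YY1 −0.31 and −0.26. After miR-21 the NRF1 medians were −0.14 and 0.04, and after miR-34a −0.11 and −0.07. These differences are small beside the range among the scramble arrays, and no test was made of them.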

How the data were processed

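Transcript levels in 12 samples of cultured mouse TG neurons, in 4 groups of 3, were measured on arrays. The log2 signals are as the authors deposited them, and the submitters' processing notes name Transcriptome Analysis Console 4.0 and RMA. RMA gives all arrays a common distribution, so a change in total RNA would not show, and differences of dim probes are compressed. Arrays have no read depth, and their number limits the precision. Array medians were 5.91 to 6.06. Of 22206 probes, 19572 had 1 symbol and 2634 were unnamed here. All 93 member symbols matched RefSeq (GRCm38.p6).

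Means of the 4 groups were fitted by limma 3.58.1 (R 4.3.3) over the 12 arrays, with 8 residual degrees of freedom and empirical Bayes moderation. Tests were two-sided and Benjamini-Hochberg adjusted over the 19572 probes, and differences are miRNA minus scramble. A fit with group and suffix as 1 factor (5 residual degrees of freedom) gave within-suffix contrasts, where a lone array is assumed to vary like the rest. The fit was tested on simulated data.

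The members and lists were chosen with earlier results of these data known. Named genes are, per comparison and complex, the member with the smallest p, the 10 with the largest SD, paired isoforms, core subunits, and list genes that passed. Further members were named after their values were seen. The title numbers did not pair the samples: same-numbered arrays correlated at −0.41 to 0.36 (16 pairs, 3 over 0.1).

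Alternatives were normalization, centring, dim probes, variance prior, weights, arrays in the fit, blocks, threshold, leaving out arrays, and, added after seeing the data, the F test and leaving out scramble 1 and 2.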

Additional observations from a re-analysis of the deposited data

How the results depend on the processing

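In the comparisons with scramble the count of members that passed stayed at 0 under centring, the brighter probes, the trend, the suffix as a fixed or random block, the 2 groups alone and without scramble 1 and 2 (limma). After miR-21 it was 1 of 93 with quantile normalization again (260 of 19572 named probes), 5 with array weights (2390 of all named probes, against 204 otherwise), 1 at an unadjusted p with 2-fold (1422 of all), and 0 to 1 when arrays were left out (1 without miR-34a 3, with 935 of all). After miR-324 it was 9 with array weights (2589 of all named probes), 1 at an unadjusted p with 2-fold (1151 of all), and 0 to 1 when arrays were left out (1, Atp5c1, without scramble 3, with 383 of all). The cause was not tested. With the title number as a replicate block it was 0 in all 3 comparisons, with medians of −0.01, −0.07 and −0.21 after miR-21, miR-34a and miR-324, and 2, 0 and 0 calls among all named probes.

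The median difference in the main fit was 0.02, −0.07 and −0.28 after miR-21, miR-34a and miR-324. With the suffix as a fixed block it was 0.09, −0.06 and −0.14 in the same order. After another quantile normalization it was −0.06, −0.14 and −0.20. When arrays were left out it ranged from −0.12 to 0.09 after miR-21, from −0.15 to 0.05 after miR-34a and from −0.38 to −0.13 after miR-324. Without scramble 2 it was 0.05 after miR-34a and −0.13 after miR-324. Without scramble 1 and 2, which was chosen after seeing the data, it was 0.14, 0.16 and −0.04. For miR-34a 3 against miR-34a 1 and 2, where 1 member and 2118 of all named probes were called, 2 members were called with quantile normalization again (2121 of all), 2 with centring (2395 of all) and 4 with the trend (2323 of all). Uqcc2 after miR-21 did not pass with the replicate block (1.09, limma adjusted p = 0.144) or with the suffix as a random block (1.08, limma adjusted p = 0.0686).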
